A study of Mus musculus with 15 samples.

Results

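The TTP and TTP-AA crosslink sites in the mRNA of Nlrp3 were examined in the 6 deposited lists of iCLIP sites, 1 list for each protein and time of lipopolysaccharide (LPS) treatment. A member was any site on the sense strand between the first and the last annotated base of Nlrp3. There were 153 such entries, at 129 distinct positions, among the 162273 entries of all lists. At 1 h of LPS, 127 of these entries belonged to TTP-AA and 26 to TTP. The unstimulated and 4 h lists held none.

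Nlrp3 encodes the sensor of the NLRP3 inflammasome, a cytosolic complex that macrophages assemble in response to danger signals such as ion efflux, crystals or pore-forming toxins. The sensor recruits the adaptor ASC (Pycard) and caspase-1 (Casp1), which then processes the interleukin-1β precursor and gasdermin D, the protein that forms pores in the plasma membrane during pyroptosis. The sensor is scarce in resting macrophages and its mRNA is induced by NF-κB signaling, the step known as priming. Tristetraprolin (TTP, encoded by Zfp36) is a zinc finger protein that binds AU-rich elements, often built around the pentamer AUUUA, in the 3′UTRs of short-lived mRNAs and recruits deadenylases. The kinase MK2 phosphorylates TTP after LPS. TTP-AA carries alanines in place of MK2 target serines.

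All cells were immortalised macrophage lines derived from the bone marrow of TTP-deficient C57BL/6 mice with the oncogenes hcmyc and an activated form of hRas. They expressed GFP-TTP or GFP-TTP-AA from a tet-inducible vector, so both proteins were tagged and came from a transgene. Every group received doxycycline (1 µg/ml) for 6 h, and the stimulated groups received LPS (1 µg/ml) for 1 h or 4 h. In iCLIP, proteins are crosslinked to RNA with ultraviolet light, the complex is purified, here with a GFP-binding nanobody, and reverse transcription stops at the crosslinked nucleotide. A site is therefore 1 nucleotide, and its value is the number of unique cDNAs that ended there.

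In time order, the GFP-TTP lists pooled 2, 4 and 2 libraries, and the GFP-TTP-AA lists pooled 2, 3 and 2. Each list held between 19167 and 174397 cDNAs, of which between 906 and 93510 lay in 3′UTRs. Because a list is a sum over libraries, no spread between replicates could be given. The intervals and tests below cover counting error alone and compare pooled lists, not conditions. The lists hold only sites that passed a false discovery rate in the peak caller, so a list without Nlrp3 sites can still have had cDNAs there that did not pass. In these cells without endogenous TTP, the gene Zfp36 itself held between 0 and 131 3′UTR cDNAs and between 0 and 31 coding cDNAs per list. The lists hold bound RNA, so macrophage markers could not be checked as expression. RNA abundance was not analysed here, and more Nlrp3 mRNA and more binding per mRNA cannot be told apart.

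Nlrp3 (ENSMUSG00000032691.14) lies on the plus strand of chr11:59541568-59566956 in the GRCm38 assembly, also named mm10, and 0 other annotated genes overlapped it. Its longest annotated 3′UTR, that of transcript ENSMUST00000101148.8, is 693 nt long, lies wholly in exon 10 of 10 and spans chr11:59566264-59566956. It contained 5 AUUUA pentamers, beginning 567, 588, 617, 649 and 685 nt after the stop codon. Of these, 2 lay within the heptamer UAUUUAU and 1 within the octamer UAUUUAUU. The nonamer UUAUUUAUU, the full AU-rich core, did not occur. A polyadenylation hexamer AAUAAA began at nucleotide 668. The stretch before the first crosslink site was 41.5% A and U over 369 nt, whereas the stretch from nucleotide 500 to the end was 77.8% A and U over 194 nt.

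The sequences at the sites with most cDNAs show which bases were crosslinked. By rule, the 3 sites with most cDNAs in each 1 h list were taken. The site at nucleotide 618 was among them in both lists, so they came to 5 positions, of which 616 and 624 lie within the window printed for 618. Each line is 21 nt of the mature mRNA with the crosslinked base in the center, at position 11, and the AUUUA pentamer in capitals. The sequences were read from the GENCODE M21 transcript on the plus strand. A window from the U-rich stretch upstream of the first AUUUA was added after its values were seen.
Nlrp3 site 649, chr11:59566902-59566922: cuuuuaaguuAUUUAuccaaa
Nlrp3 site 618, chr11:59566871-59566891: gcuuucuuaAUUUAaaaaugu
Nlrp3 site 588, chr11:59566841-59566861: ccauuuuuguAUUUAuuguau
Nlrp3 site 524, chr11:59566777-59566797: guuuuuauuuuuuaauaguua

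At site 649, the first A of the fourth AUUUA, the TTP-AA list held 20 cDNAs and the TTP list held 0. This was the site with most cDNAs of Nlrp3 in any list. At site 618, the first U of the third AUUUA, TTP-AA had 16 cDNAs and TTP had 3. Site 616, the A just before that pentamer, had 19 TTP-AA cDNAs and 0 TTP cDNAs, and site 624, downstream of it, had 1 and 3. Site 588, the first A of the second AUUUA, had 11 TTP-AA and 2 TTP cDNAs. Site 524, in the U-rich stretch that lacks an AUUUA, had 7 and 1. The sites with most cDNAs therefore lay at or beside the pentamers in both lists, although the TTP counts per site were too low to order them.

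The first question was where on the Nlrp3 transcript both proteins crosslinked. All 31 TTP cDNAs and all 505 TTP-AA cDNAs of the gene were in the 3′UTR, so the share was 100% in both lists (Wilson 95% interval 89.0 to 100% for TTP and 99.2 to 100% for TTP-AA). The coding sequence, the 5′UTR and the introns held 0 sites, as did the antisense strand and the 5000 nt downstream of the gene. Within the 3′UTR, 0 cDNAs of either protein fell in the first 369 nt. The TTP-AA sites spanned nucleotides 370 to 661 and the TTP sites 523 to 655.

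The cDNAs formed 3 parts along the 3′UTR, with borders set after the map was seen. The most upstream part, nucleotides 370 to 499, had 17 of 505 TTP-AA cDNAs (3.37%, interval 2.11 to 5.32%) at 14 sites and 0 of 31 TTP cDNAs. A TTP share of that size could not be detected with 31 cDNAs, for which the interval of a count of 0 reached 11.0%. The U-rich stretch from nucleotide 500 to the first pentamer contained 101 of 505 TTP-AA cDNAs (interval 16.7 to 23.7%) and 7 TTP cDNAs (22.6%, 11.4 to 39.8%). The AUUUA-containing part from 567 to 661 contained 387 TTP-AA cDNAs (76.6%, 72.8 to 80.1%) and 24 TTP cDNAs (77.4%, 60.2 to 88.6%). In both last parts the intervals of the proteins overlapped. The median cDNA lay at nucleotide 604 for TTP-AA and at 593 for TTP.

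**Figure D1:**
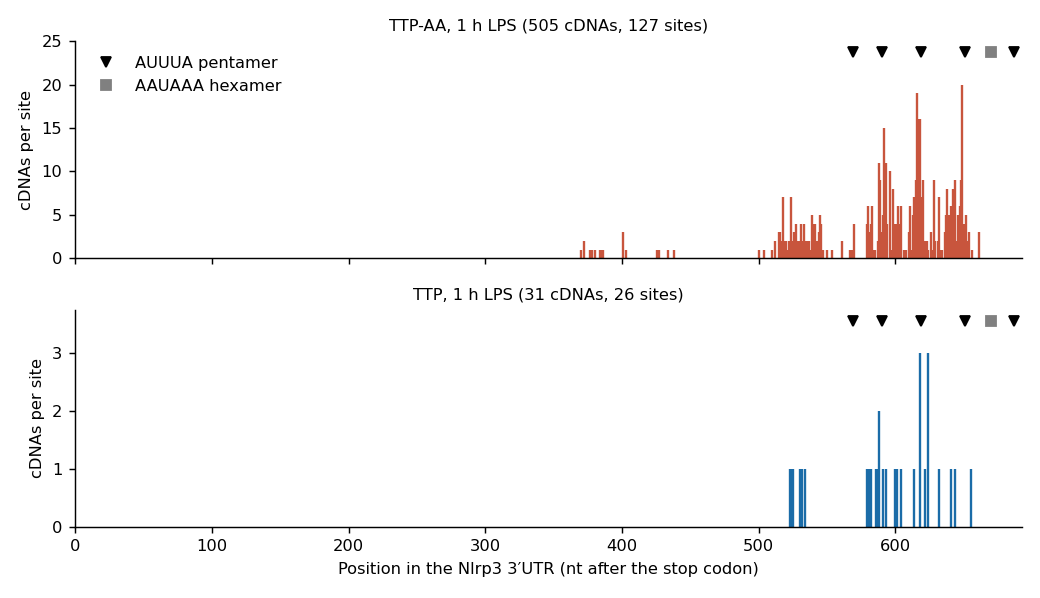
Unique cDNAs per crosslink site (y axis, different scales) along the Nlrp3 3′UTR (x axis, nt after the stop codon) for TTP-AA (top, 505 cDNAs at 127 sites) and TTP (bottom, 31 cDNAs at 26 sites) at 1 h of LPS. Each line is 1 site, triangles mark the 5 AUUUA pentamers and the square marks AAUAAA; both proteins have sites in the U-rich stretch around nucleotide 524 and around the pentamers at 588, 617 and 649, and neither has any in the first 369 nt.

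The pentamers themselves differed in how many cDNAs they had. Within 5 nt of the second AUUUA, which is the one within UAUUUAUU, there were 79 TTP-AA and 6 TTP cDNAs. The third, in the context aAUUUAa, had 99 and 8, and the fourth, within UAUUUAU, had 68 and 2. The first had 7 and 0. The fifth, which ends 4 nt before the annotated 3′ end, had 0 and 0. The pentamers at 588, 617 and 649 therefore accounted for nearly all cDNAs close to an AUUUA, in both lists. The last TTP-AA site lay 32 nt before the annotated end and the last TTP site 38 nt before it. A cDNA extends from the crosslink toward the 3′ end of the RNA, so a site close to the end leaves little sequence to map; whether this contributed was not tested.

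Counted over all pentamers, 390 of 505 TTP-AA cDNAs (77.2%, interval 73.4 to 80.7%) and 24 of 31 TTP cDNAs (77.4%, 60.2 to 88.6%) lay near an AUUUA, that is, with the whole pentamer within 20 nt of the site. Of the 3′UTR itself, 20.6% of nucleotides lie this near. Between nucleotide 500 and the last site, however, 68.5% do.

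U was the crosslinked base for 327 of 505 TTP-AA cDNAs (64.8%, 60.5 to 68.8%) and 18 of 31 TTP cDNAs (58.1%, 40.8 to 73.6%). A followed with 127 cDNAs (25.1%) for TTP-AA and 9 (29.0%) for TTP. C and G together made up the remaining 28 and 23 cDNAs of TTP-AA, and 2 and 2 of TTP. The base content of the 3′UTR from nucleotide 500 on was 45.4% U, 32.5% A, 12.9% C and 9.28% G. U was thus crosslinked more often, and A less often, than its share of that stretch for TTP-AA. Ultraviolet light is known to crosslink uridine most readily.

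**Figure D2:**
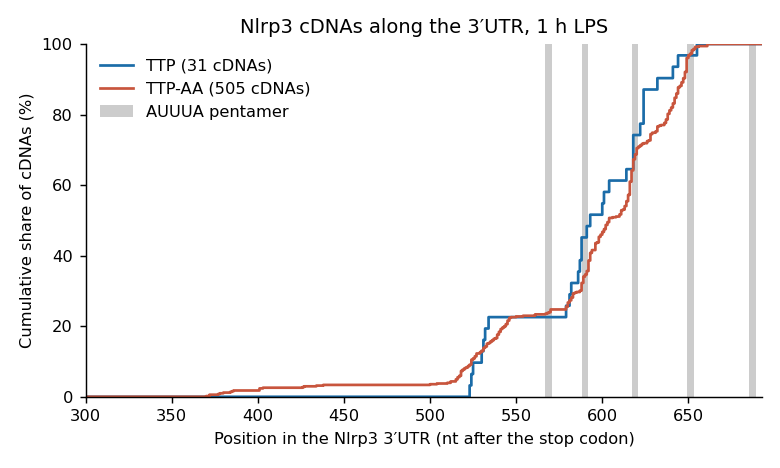
Cumulative share of cDNAs (y axis, %) over the 3′ portion of the Nlrp3 3′UTR (x axis, nt after the stop codon) for TTP (31 cDNAs) and TTP-AA (505 cDNAs) at 1 h, with AUUUA pentamers shaded. Both curves rise in the U-rich stretch before the first pentamer and again from 579 to 649, and only the TTP-AA curve leaves 0 before nucleotide 500.

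The sites of TTP were nearly all sites of TTP-AA as well. Of the 26 TTP sites, 24 were at the very nucleotide of a TTP-AA site (92.3%, interval 75.9 to 97.9%), and all 26 had a TTP-AA site within 5 nt. The exceptions at the nucleotide level were sites 586 and 655, which had 1 TTP cDNA each. In the other direction, 24 of the 127 TTP-AA sites (18.9%, 13.0 to 26.6%) were at a TTP site and 108 (85.0%, 77.8 to 90.2%) had one within 15 nt. The TTP-AA sites near a TTP site held 482 of the 505 cDNAs (95.4%, 93.3 to 96.9%). TTP-AA sites were dense in this stretch, with 113 of them in the 194 nt from nucleotide 500 on and 74 in the 95 nt from 567 to 661. Every nucleotide from 523 to 655, the span of the TTP sites, has a TTP-AA site within 5 nt. The overlap within 5 nt was thus bound to be complete, and much of that at the same nucleotide follows from this density.

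The next question was how much the 2 proteins differed on Nlrp3 at 1 h of LPS. TTP-AA had 505 3′UTR cDNAs from 3 libraries and TTP had 31 from 4 libraries, a ratio of 16.3 (exact 95% interval 11.3 to 24.2). The TTP-AA list held 9.78 times as many 3′UTR cDNAs as the TTP list over all genes. Relative to this, Nlrp3 was 1.67 times as high in TTP-AA (1.16 to 2.48). It made up 0.324% of the 3′UTR cDNAs of TTP (Wilson interval 0.229 to 0.460%) and 0.540% of those of TTP-AA (0.495 to 0.589%).

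In the Fisher exact test of Nlrp3 against all other 3′UTR cDNAs, the odds ratio was 1.67 with p = 0.00440. After Benjamini-Hochberg adjustment over 2065 genes the p was 0.0640, so Nlrp3 did not pass the threshold of 0.05, which 132 genes passed in either direction (6.39% of those tested). This call turned on the settings. With a minimum of 20 rather than 10 cDNAs per gene, the same odds ratio had an adjusted p of 0.0424 (Fisher exact test over 1155 genes, of which 10.6% passed). Against all cDNAs of the list rather than those in 3′UTRs, the odds ratio was 9.30 (adjusted p 2.03e-60, Fisher exact test), and there 85.4% of the genes tested passed, so passing was not particular to Nlrp3. With each site counted once, it turned to 0.54 (adjusted p 0.0863, Fisher exact test), since Nlrp3 had 127 TTP-AA and 26 TTP sites.

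The lists also differed in how many cDNAs a site of Nlrp3 held. Nlrp3 sites had 3.98 cDNAs on average in the TTP-AA list, where a 3′UTR site of any gene had 1.53. In the TTP list the averages were 1.19 for Nlrp3 and 1.41 for all 3′UTR sites. Of the TTP-AA sites of Nlrp3, 35 of 127 (27.6%) had a single cDNA and 38 had 5 or more. Of the TTP sites, 23 of 26 (88.5%) had a single cDNA and none had more than 3. The 10 sites with most cDNAs held 26.9% of the TTP-AA cDNAs, so no small set of positions carried the TTP-AA signal.

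**Figure D3:**
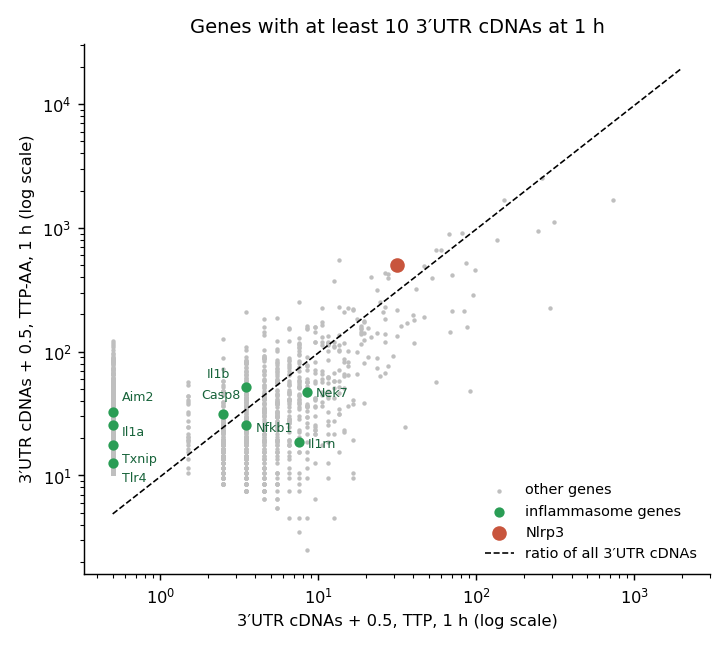
3′UTR cDNAs plus 0.5 in the TTP list (x axis) and the TTP-AA list (y axis) at 1 h of LPS, both on log scales, for each of the 2065 genes with at least 10 cDNAs over both lists. The dashed line is the ratio of all 3′UTR cDNAs (9.78). Nlrp3, with 31 and 505 cDNAs, lies above it and to the upper right of all other inflammasome genes, as of most genes plotted.

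In the order of all genes, Nlrp3 was at place 13 of 4468 genes by TTP-AA 3′UTR cDNAs. By TTP 3′UTR cDNAs it took place 32, shared by 3 genes, among 1295. By the TTP-AA to TTP ratio it was at place 31 of the 124 genes with at least 100 cDNAs over both lists and more than 3 TTP cDNAs, whose ratios ranged from 0.533 to 46.0 with a median of 10.6. Genes with at least 100 cDNAs but no more than 3 from TTP were left out. All of these lean further to TTP-AA than Nlrp3, for example Anxa5 with 3 TTP and 207 TTP-AA cDNAs. The neighbors of Nlrp3 in this order were Serinc3 (16.3) and Plau (16.4) above and Csf1 and Rhob (both 16.0) below, all within its interval. The interval of Nlrp3 overlapped that of 84 of the other 123 genes. It lay wholly above that of 38 and wholly below that of 1. Among the 27 genes that the study listed as major or selected 3′UTR targets, a list chosen on these same samples, Nlrp3 was at place 6 by this ratio, between Plau (16.4) and B2m (15.7), and at place 14 by cDNAs. Both places rest on the counts made here and not on the ratios or counts that the study printed for these genes.

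The design also implies comparisons over time. For TTP, the 0 h list held 0 Nlrp3 cDNAs among 4369 in 3′UTRs, the 1 h list 31 of 9558 and the 4 h list 0 of 906. For TTP-AA, they held 0 of 6008, 505 of 93510 and 0 of 1000. Nlrp3 was thus found in the lists of 1 h alone, for both proteins.

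From 0 h to 1 h, the Nlrp3 share of the listed 3′UTR cDNAs was higher in the 1 h list for both proteins. Nlrp3 entered these tests through its 1 h cDNAs alone. Only a higher share at 1 h could therefore be called, and the p-values are no separate support for it. At the TTP share of 1 h, 14.2 cDNAs would fall in the 0 h list, which had 0 (adjusted p = 1.06e-04, Fisher exact test over 276 genes, of which 23.9% were called higher at 1 h). At the TTP-AA share of 1 h, 32.4 would fall in the 0 h list, which had 0 (adjusted p = 3.27e-12, Fisher exact test over 2052 genes, of which 2.73% were called higher at 1 h). These tests compare lists, and the headers of the 1 h lists carry a mark for handling regions as a unit that those of 0 h and 4 h lack. Time and this difference in peak calling cannot be told apart.

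From 1 h to 4 h, the lower Nlrp3 share of 3′UTR cDNAs did not pass the threshold after adjustment for either protein. Here too Nlrp3 entered the tests through its 1 h cDNAs alone, so only a lower share at 4 h could be called. The header mark of the 1 h lists is also absent at 4 h, so time and peak calling cannot be told apart. At the 1 h shares, only 2.94 TTP and 5.40 TTP-AA cDNAs would fall in the 4 h lists. For TTP, the p was 0.107 and the adjusted p 0.319 (Fisher exact test over 170 genes, of which 5.88% were called lower at 4 h). For TTP-AA, the p was 0.00782 and the adjusted p 0.177 (Fisher exact test over 1980 genes, of which 0.101% were called lower at 4 h). Against all cDNAs of each list, which also hold intronic, intergenic and non-coding sites, the adjusted p was 0.00494 for TTP, where 27.6% of genes were called lower at 4 h, and 5.94e-21 for TTP-AA, where 13.7% were (Fisher exact tests). The part of all cDNAs that lay in 3′UTRs also differed between these lists. For TTP-AA it was 93510 of 174397 at 1 h and 1000 of 19167 at 4 h, and for TTP 9558 of 99263 and 906 of 29060. The p-values against all cDNAs therefore do not concern Nlrp3 alone. Nlrp3 had no cDNA of either protein before LPS or at 4 h, so the proteins could not be compared there.

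There were 19 genes, Nlrp3 included, with at least as many 3′UTR cDNAs over the 6 lists as Nlrp3. Among them Nlrp3 was the sole gene without a cDNA in all lists of 0 h and 4 h. The cutoff is the total of Nlrp3 itself, and it leaves out Tnfsf9 and Nfkbiz, which also had 0 cDNAs in those lists. Of the 19, 2 had none at 0 h and 5 had none at 4 h. Among the 459 genes with at least 50 cDNAs, 98 (21.4%) were found in the 1 h lists alone.

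The genes whose cDNAs over the 6 lists were most like those of Nlrp3 were Tnfsf9, Nfkbiz, Msn, Cflar and Ptgs2. Likeness was the distance between log2 values of cDNAs scaled to all 3′UTR cDNAs of the list, centered per gene, over the 6 lists and among 459 genes. Tnfsf9, the ligand of the co-stimulatory receptor 4-1BB, was nearest (distance 0.28) with 26 TTP and 429 TTP-AA cDNAs at 1 h. Nfkbiz, which encodes the nuclear NF-κB regulator IκBζ, had 12 and 375 (distance 1.20). Msn, encoding the membrane-cytoskeleton linker moesin, had 16 and 220 (distance 1.24). Cflar, the caspase-8 inhibitor cFLIP, had 14 and 209 (distance 1.38), and Ptgs2, the inducible cyclooxygenase, had 18 and 155 (distance 1.57). All 5 had 0 cDNAs in the lists of 0 h and 4 h, as Nlrp3 did, which the choice by these same lists favors.

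Other genes of the inflammasome had far fewer 3′UTR cDNAs. Nlrp3 was at place 14 of 4646 genes by 3′UTR cDNAs over both 1 h lists, so nearly all genes had fewer. Having fewer than Nlrp3 therefore does not set the inflammasome genes apart. Of the 34 other genes in the list of inflammasome and pyroptosis genes, 22 had 0 3′UTR cDNAs in both 1 h lists and 9 had the 10 cDNAs needed for the test. Of these 9, 0 passed the threshold in either direction (6.39% of all genes tested did); at an unadjusted p under 0.05 there was 1, Il1rn. Summed over the 34 genes, TTP-AA had 262 cDNAs and TTP had 27, fewer than Nlrp3 alone had. Over all genes, 4646 had 3′UTR cDNAs at 1 h. The share of annotated genes without any was not computed, so the count of 22 does not set this list apart. RNA abundance was not analysed, so little mRNA and little binding cannot be told apart for these genes.

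Among the 12 other sensors, Aim2, the sensor of cytosolic double-stranded DNA, was the sole one with 3′UTR cDNAs at 1 h, 32 in TTP-AA and 0 in TTP (adjusted p = 0.318, Fisher exact test). The flagellin and secretion-system sensors Nlrc4 and Naip1, Naip2, Naip5 and Naip6 had 0, as had Nlrp1a, Nlrp1b, Nlrp6, Nlrp12, Mefv and Zbp1. In the separate list of 9 further NLR family genes, which includes the peptidoglycan sensors Nod1 and Nod2, 8 had none and Nlrc5 had 2 TTP-AA cDNAs. As above, the share of annotated genes without any 3′UTR cDNA was not computed. The counts of 0 here and for the genes below therefore do not set these genes apart.

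The core components downstream of the sensor also had few or none. Pycard had 2 TTP-AA cDNAs and 0 TTP cDNAs, and Casp1 and Gsdmd had 0 in both lists. Casp4, which was grouped with them but is not a core component downstream of NLRP3, also had 0 in both. Casp8, an apoptotic caspase that can also be recruited to ASC, had 31 TTP-AA cDNAs and 2 TTP cDNAs (adjusted p = 0.827, Fisher exact test).

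Of the cytokines, Il1b, the main product of the inflammasome, had 51 TTP-AA and 3 TTP cDNAs at 1 h (adjusted p = 0.731, Fisher exact test). Il1a had 25 and 0, and Il18 had 0 in both. Il1rn, the interleukin-1 receptor antagonist, had 18 TTP-AA and 7 TTP cDNAs, an odds ratio of 0.26 (p = 0.00630, adjusted p = 0.0798, Fisher exact test). This value lay on the other side of 1 from that of Nlrp3, without passing the threshold. Il1rn was also the cytokine of the list with cDNAs at 4 h, 4 in TTP.

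Of the 9 upstream factors, 4 were tested. Nek7, the kinase that NLRP3 needs for assembly, had 47 TTP-AA and 8 TTP cDNAs at 1 h, a ratio of 5.88 with an adjusted p of 0.490 (Fisher exact test). Txnip, a thioredoxin-binding protein that has been linked to NLRP3 activation, had 17 and 0 at 1 h, and also 3 TTP and 10 TTP-AA cDNAs at 0 h. Tlr4, the LPS receptor, had 12 and 0. Nfkb1, the p105 NF-κB subunit, had 25 and 3. The 1 h counts of all 4 were below the 31 and 505 of Nlrp3 in the respective list, as were those of most genes.

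Last, the layout of the Nlrp3 sites was set beside that of 119 genes, Nlrp3 included, with at least 100 TTP-AA 3′UTR cDNAs at 1 h on their longest annotated 3′UTR. The Nlrp3 3′UTR was short, at 693 nt against a median of 1434 nt (quartiles 758 and 2462 nt), whereas its 5 pentamers compared with a median of 4. Its share of cDNAs within 20 nt of an AUUUA, 77.2%, compared with a median of 41.1% (quartiles 15.5 and 58.5%), and 8 genes had a higher share. The share of 3′UTR nucleotides this near also differed, for example 20.6% in Nlrp3, 7.46% in Socs3 and 70% in Gdf15. The cDNA shares were not scaled to it. There were 10 genes among the 119 without an AUUUA, which could have no cDNAs near one. The Nlrp3 share in the last 200 nt, 96.6%, compared with a median of 14.8%, and 10 genes were higher. This window held the same share as the stretch from nucleotide 500, a border set after the Nlrp3 map was seen. The window thus matches the Nlrp3 sites, which favors a high place of Nlrp3, so that place is no separate support. All Nlrp3 cDNAs lay downstream of the midpoint of the 3′UTR, which held for 14 of the 119 genes. Both shares were at least as high as in Nlrp3 in 3 other genes, Gdf15, Hist1h3c and Socs3. Of the 119 genes, 3 have a 3′UTR of 200 nt or less, which puts all their cDNAs in its last 200 nt. Gdf15 (150 nt) and Hist1h3c (114 nt) are among them. A window of 200 nt covers more of a short 3′UTR such as that of Nlrp3, and the shares were not scaled to length. Sites were placed on the longest annotated 3′UTR, so in genes that use an earlier polyadenylation site the true end lies upstream of the end used here.

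**Figure D4:**
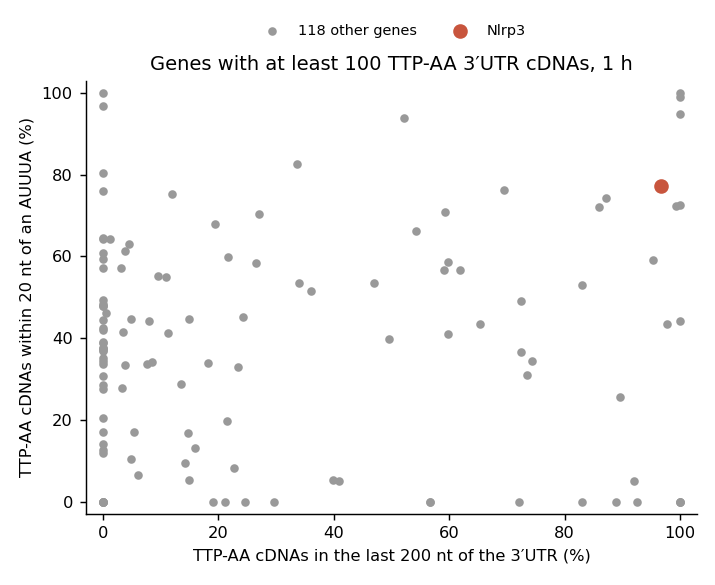
Share of TTP-AA 3′UTR cDNAs in the last 200 nt of the longest annotated 3′UTR (x axis, %) and within 20 nt of an AUUUA (y axis, %) at 1 h, for 119 genes with at least 100 such cDNAs. Each point is 1 gene, and Nlrp3 is at 96.6% and 77.2%, in the upper right, with 3 genes at least as high on both axes. The 200 nt window matches the stretch that holds most Nlrp3 sites, which favors a high place of Nlrp3 on the x axis.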

How the data were processed

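iCLIP was done on 15 samples in 6 groups, and the deposited files held 1 list of sites per group. The value of a site is a deposited score, which the file headers name as cDNA hits: a whole number of unique cDNAs, with the sign giving the strand. The authors removed PCR duplicates with random barcode bases, mapped unique reads to mm10 with Bowtie (Ensembl 75 annotation), added up the libraries within each group, and ran iCount (100 permutations, 15 nt flanks) to retain sites with a false discovery rate under 0.05. Short random barcodes can merge distinct cDNAs at strong sites. Summing means that no value per library was used.

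Sites were assigned on their strand to GENCODE M21 (GRCm38) in the order 3′UTR, coding sequence, 5′UTR, non-coding exon, intron. The authors used an older annotation, which can shift gene counts. Genes with at least 10 3′UTR cDNAs over 2 lists were compared, gene against remaining 3′UTR cDNAs, by Fisher exact tests (two-sided), adjusted by Benjamini-Hochberg (threshold 0.05). Shares have Wilson 95% intervals and ratios exact Clopper-Pearson intervals. AUUUA and the other motifs were searched on the sense strand, overlaps allowed. Precision follows from depth: 31 TTP cDNAs against 505 TTP-AA cDNAs. Python 3.11.15, numpy 2.4.6, pandas 2.3.3, scipy 1.17.1 and matplotlib 3.10.9 were used, and the test was tried on simulated counts.

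Nlrp3, the gene lists and the tests were chosen with earlier results of these data known. List members with at least 10 3′UTR cDNAs at 1 h were named with values and the others by count; members with fewer that are named were chosen after their values were seen. Of each 1 h list, the 3 sites with most cDNAs were named, with ties broken by the other list. The 5 genes most like Nlrp3 used a pseudocount of 0.5 and genes with at least 50 cDNAs. The alternatives tried were other references, minima, windows and distances, sites in place of cDNAs, and annotation choices.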

Additional observations from a re-analysis of the deposited data

How the results depend on the processing

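No paired analysis was possible because each list sums the libraries of its group and carries no replicate numbers, and for the same reason no replicate could be left out. The cDNA ratio of 16.3 at 1 h fell to 4.88 with each site counted once and to 1.67 relative to all 3′UTR cDNAs, and was 58.8 over sites with at least 2 cDNAs, where TTP kept few. The odds ratio of the Nlrp3 share was 0.54 with sites in place of cDNAs, 9.30 against all cDNAs of the list, 7.41 outside the ribosomal RNA locus and 5.13 over sites with at least 2 cDNAs. It stayed at 1.67 with a minimum of 20 cDNAs per gene (adjusted p 0.0424, Fisher exact test) and was 1.77 without the Nlrp3 site with most cDNAs in each list (adjusted p 0.0376, Fisher exact test), the latter chosen after seeing the data. Over the 8 alternatives the adjusted p ranged from 2.03e-60 to 0.0863, so the call depends on these settings; the cause was not tested. Against all cDNAs, 1763 of 2065 genes passed at 1 h in place of 132.

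With the empty list put at 3 cDNAs, the 1 h share over the 4 h share was 3.03 (TTP) and 18.5 (TTP-AA) against all cDNAs, past the threshold, and 1.02 and 1.80 against 3′UTR cDNAs, short of it. Nlrp3 entered all tests over time through its 1 h cDNAs alone, which fixed their direction. In them, the higher shares at 1 h than at 0 h passed under both alternatives tried, sites and all cDNAs. The share of cDNAs near an AUUUA was 54.8% for TTP and 55.4% for TTP-AA within 10 nt, 100% and 91.9% within 50 nt, and 59.8% of TTP-AA sites counted once. TTP-AA sites with a TTP site numbered 18.9% at the same nucleotide and 70.9% within 5 nt, and 95.4% of cDNAs within 15 nt. The protein contrasts at 0 h and 4 h and the first 300 nt of the 3′UTR had no cDNA and gave no value. With a pseudocount of 1, 4 of the 5 most similar genes were shared. The 26 other alternatives kept direction and side of the threshold, or stayed within the interval.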
